A study of Homo sapiens with 6 samples.

Results

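The IFI6, IFI27, IFI44 and SAMD9 families, with IFI35 and EPSTI1, make up 10 genes that interferon is known to induce, or that are related by sequence to such genes. The members were chosen by symbol from the deposited gene table, and all 10 of them were found there, each in 1 row, among 57820 genes. RNA was sequenced from M14, an established human melanoma cell line that carries a doxycycline-inducible shRNA against STAG2, a subunit of the cohesin complex that folds chromosomes into loops. Cells grown without doxycycline (WT) gave 3 libraries, and cells grown for 5 days with 5 µg/ml doxycycline (KD) gave 3. Both conditions carried the shRNA construct and were kept under puromycin, and all libraries came from 1 line with 1 hairpin. Only the KD libraries had received doxycycline, so an effect of the drug and an effect of the knockdown cannot be told apart here. The study describes its replicates as biologically independent, while the labels do not say how the cultures were separated.

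Type I interferon binds a receptor whose kinases, JAK1 and TYK2, activate a transcription factor complex that includes STAT2 and IRF9. It binds a short DNA element, the interferon-stimulated response element (ISRE), in the promoters of its target genes. Interferon gamma acts through another element, the gamma-activated site (GAS). Among the targets, IFI6 and IFI27 encode small hydrophobic proteins of the ER and mitochondria that act on apoptosis and virus replication. IFI44 and IFI44L are neighbouring paralogs, IFI35 is a leucine zipper protein that pairs with NMI, and SAMD9 and SAMD9L are large cytoplasmic proteins that restrict poxviruses and hold back protein synthesis. EPSTI1 was described in breast cancer cells grown in contact with stromal cells.

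The promoters are shown first because the members differ in them. Promoter sequences were taken from RefSeq (GRCh38.p14, 300-base windows that begin 250 bases before each annotated start), and every member's promoter had 1 exact match on GRCh37, the assembly behind hg19, which gave the coordinates below. The ISRE was searched as GAAANNGAAA and the GAS as TTCNNNGAA, both on either strand. An ISRE match was found in 3.57% of 35116 RefSeq promoters of this length and a GAS match in 7.66%. Of the 10 members, 6 had an ISRE match. The stretches below lie upstream of the start and hold each member's ISRE matches in capitals.
IFI6 (chr1:27998767-27998879, minus strand, −176 to −64 from the start): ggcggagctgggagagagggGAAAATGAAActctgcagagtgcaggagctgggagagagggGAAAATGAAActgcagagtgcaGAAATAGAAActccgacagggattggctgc
IFI27 (chr14:94576954-94577016, plus strand, −128 to −66): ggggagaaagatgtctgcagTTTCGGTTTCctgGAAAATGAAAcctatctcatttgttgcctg
IFI44L (chr1:79085949-79086089, plus strand, −184 to −44): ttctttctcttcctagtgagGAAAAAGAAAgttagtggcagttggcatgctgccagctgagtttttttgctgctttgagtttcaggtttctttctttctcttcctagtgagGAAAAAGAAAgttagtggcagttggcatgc
IFI44 (chr1:79115436-79115473, plus strand, −38 to −1): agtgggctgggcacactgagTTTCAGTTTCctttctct
SAMD9 (chr7:92747399-92747448, minus strand, −156 to −107): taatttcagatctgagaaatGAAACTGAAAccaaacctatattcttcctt
EPSTI1 (chr13:43566398-43566447, minus strand, −70 to −21): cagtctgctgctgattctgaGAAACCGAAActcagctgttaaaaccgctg

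IFI6 had 3 ISRE matches, IFI27 and IFI44L 2 each, and IFI44, SAMD9 and EPSTI1 1 each. The first 2 matches of IFI6 lay in a stretch of 29 bases that occurs again 41 bases downstream. Both matches of IFI44L lay in a longer repeat, 85 bases that recur 91 bases downstream. The other 4 members had no ISRE match in this window, namely SAMD9L, IFI35, IFI27L1 and IFI27L2. GAS matches were found in IFI27, EPSTI1 and IFI35. The GAS match of IFI27 spans the gap between its ISRE matches and overlaps both, and that of EPSTI1 overlaps its ISRE match. These are matches of letters, and no binding was measured in the libraries.

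**Figure D1:**
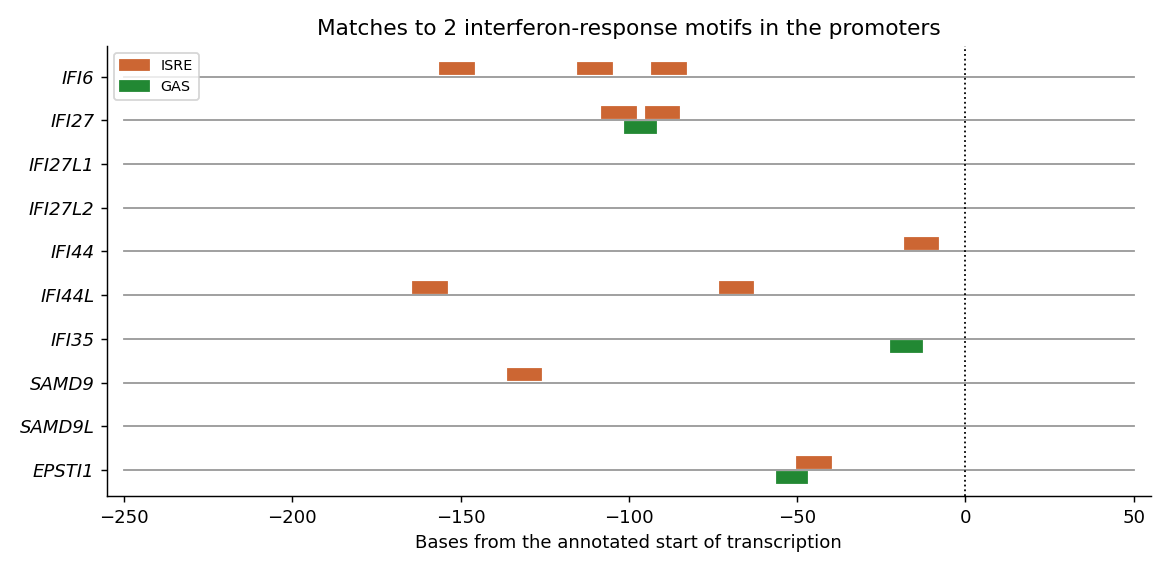
Position of each ISRE match (orange) and GAS match (green) in the promoters of the 10 members, in bases from the annotated start of transcription (dotted line), with the first RefSeq start used for IFI27 and IFI44. IFI6 has 3 ISRE matches and 4 members have none.

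The libraries held between 24895998 and 35181733 expected counts, the read numbers that RSEM assigns to each gene. Levels are given as CPM, counts scaled to the library size after TMM scaling, and 3 counts came to between 0.087 and 0.112 CPM. That limit covers counting error only. STAG2, the target of the shRNA, was at 66.5, 34.8 and 28.8 CPM in WT replicates 1 to 3 and at 16.0, 7.31 and 6.69 CPM in KD replicates 1 to 3. The conditions did not overlap, with a log2 fold change of −2.12 (SE 0.43, adjusted p = 0.0342, edgeR quasi-likelihood test). Both libraries numbered 1 stood apart from the rest. PMEL, which encodes a melanosome protein, was at 3371 CPM in WT replicate 1 against 661.7 and 683.5 CPM in the other WT libraries, and at 1254 CPM in KD replicate 1 against 357.7 and 364.3 CPM. In WT replicate 1 the mitochondrial share of the counts was 5.07%, against 2.12% to 2.94% in the other libraries. Results are therefore also given without both libraries numbered 1.

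The melanoma label was checked against 8 markers of the melanocyte lineage, all of which were expressed, with SOX10 averaging 619.1 ± 49.5 CPM without and 388 ± 77.4 CPM with doxycycline (SD, n = 3 each). The summed level of the 8 markers was 6311, 1916 and 1861 CPM for WT replicates 1 to 3 and 2606, 1267 and 1195 CPM for KD. S100B was lower in KD in the edgeR test, and 6 of the 8 were lower with the replicate number as a block. Of the 6 leukocyte markers, CD3E was at 0 in each library and PTPRC was detected only in WT replicate 3, at 0.582 CPM. CD79A and CD14 were at 0.986 CPM or less in each library. LYZ, the lysozyme gene, was low but above the limit of 3 counts, at 0.875, 0.864 and 0.473 CPM for WT and 2.17, 1.97 and 2.17 CPM for KD, without overlap (log2 fold change 1.51, adjusted p = 0.447, edgeR). CD68, a lysosomal gene that cells other than macrophages also express, was called higher in KD (log2 fold change 1.59, adjusted p = 0.00855, edgeR) and was the most abundant of the 6, whose summed level was 26.5, 41.6 and 38.3 CPM for WT replicates 1 to 3 and 127.5, 91.8 and 91.2 CPM for KD. The 6 fibroblast markers summed to 4.26, 93.6 and 63.0 CPM for WT and 3.49, 23.6 and 18.6 CPM for KD, with COL1A1 the most abundant. COL1A1 was not called in the edgeR test (log2 fold change −1.92, adjusted p = 0.462) but was lower with the replicate block (−1.67, adjusted p = 0.00232). Endothelial markers summed to at most 5.72 CPM in any library, led by VWF. Epithelial markers summed to between 152.8 and 455.8 CPM, mostly KRT18, with KRT8 at 21.5 to 40.7 CPM, a pair of keratins that other cell types also make. The part of these markers in the results below was not tested.

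Knockdown of STAG2 was accompanied by higher levels of 7 of the 10 members, in the order IFI27, IFI44L, IFI6, IFI44, SAMD9L, SAMD9 and IFI35 by size of the change. Folds ran from 5.92 for IFI35 to 582 for IFI27. The folds of IFI27 and IFI44L rest on at most 17 and 26 counts in any WT library. Both genes passed the filter for low counts through the KD libraries, where they are high. IFI27L1 and IFI27L2, the other 2 members that could be tested, did not pass the test, and EPSTI1 was hardly detected. The test was edgeR's quasi-likelihood test over 15605 genes, with Benjamini-Hochberg adjustment over all of them. With a threshold of 0.05 on the adjusted p it called 1.75% of all tested genes higher after knockdown. For all 7 the lowest KD library exceeded the highest WT library, which held for 11.8% of all tested genes. Taken gene by gene, the exact permutation test gave a two-sided p of 0.1 for each of the 7, the smallest that 3 libraries against 3 allow. Limma-voom called 6 members, and a filter of 10 counts in every library left 5 called, since IFI27 and IFI44L were then not tested. Bulk RNA does not separate a higher level per cell from a larger share of cells that express a gene.

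**Figure D2:**
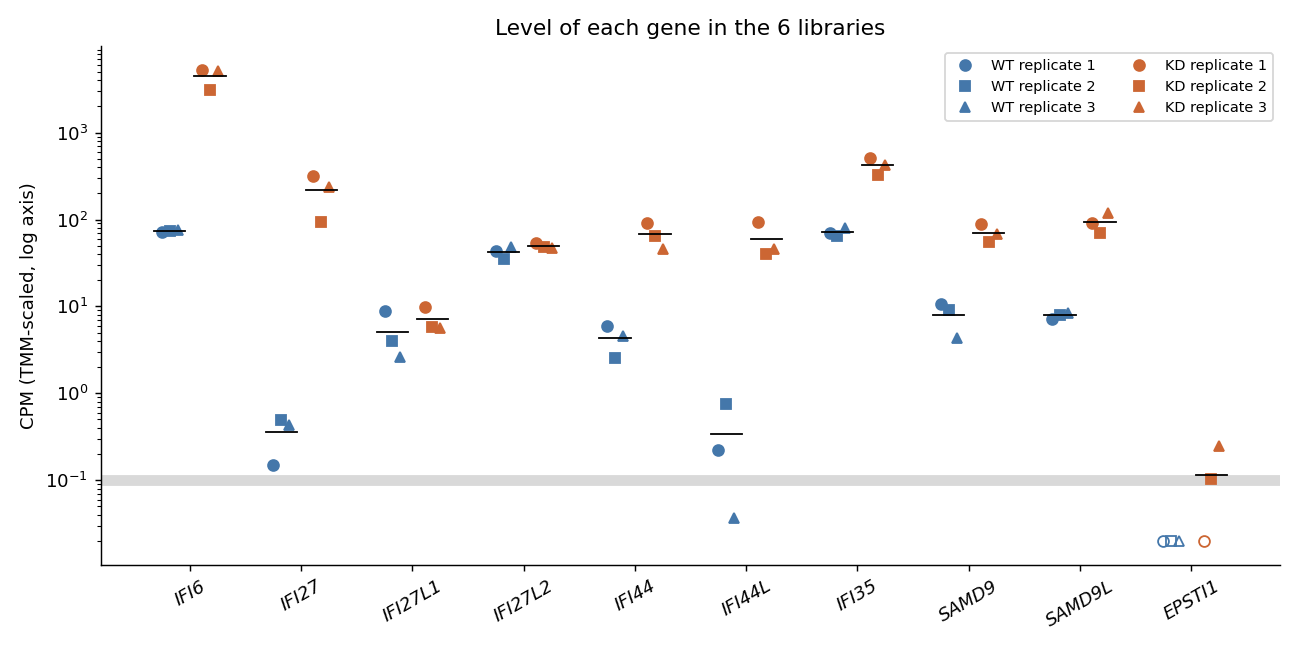
Level of each member in the 6 libraries, in TMM-scaled CPM on a log axis, with 1 symbol per library, the condition mean as a black line and the span of 3 counts per library in grey. Open symbols at the bottom mark libraries at 0 CPM, which occur in EPSTI1 only. KD libraries lie above WT libraries in 7 members, while IFI27L1, IFI27L2 and EPSTI1 overlap.

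IFI6 (ENSG00000126709) is a minus-strand gene of chromosome 1 (GRCh37, 27992575 to 27998723) with 5 exons in its canonical transcript. Its protein of the ER and mitochondria is known to delay apoptosis and to block flavivirus replication. WT replicates 1 to 3 held IFI6 at 72.5, 74.1 and 74.9 CPM, and KD replicates 1 to 3 at 5322, 3078 and 5164 CPM. The WT libraries were nearly equal, and the KD libraries were far above them with replicate 2 the lowest. The mean was 73.8 ± 1.18 CPM for WT and 4522 ± 1252 CPM for KD (SD, n = 3 each). The log2 fold change was 5.94 (SE 0.31, adjusted p = 2.08e-05, edgeR), a 61.2-fold rise. By mean CPM, not corrected for length, IFI6 ranked 2864 among all genes in WT and 7 in KD. It made up between 33.1% and 37.5% of the counts of the 10 members in the WT libraries and between 80.8% and 83.8% in the KD libraries. The 10 genes together took between 0.0194% and 0.0237% of each WT library and 0.702%, 0.358% and 0.608% of KD replicates 1 to 3.

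An annotated long non-coding RNA gene, LINC02574, overlaps IFI6 by 216 bases on the same strand, so RSEM could have divided reads between them. Its counts were 0, 0 and 10 in WT and 18, 31 and 94 in KD, small beside those of IFI6. A further one, ENSG00000225886, overlaps 2745 bases on the opposite strand and had 0 counts in each WT library and 0, 10 and 37 in KD. The libraries were made with a directional kit, which keeps the strand, but the strand setting of the counting is not given in the sources used here. Reads on the shared 216 bases cannot be assigned by strand, and whether opposite-strand reads were kept apart is not known.

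IFI27, IFI27L1 and IFI27L2 belong to the same small-protein family as IFI6 and form a cluster on chromosome 14 of GRCh37. IFI27L1 (ENSG00000165948, 94547647 to 94570192, plus strand) ends 0.99 kb before IFI27 (ENSG00000165949, 94571182 to 94583032, plus strand). IFI27L2 (ENSG00000119632, 94594116 to 94596590) lies 11.08 kb further on the minus strand. The spans and gaps cover all annotated transcripts of each gene. The IFI27 promoter shown above, at 94576954 to 94577016, belongs to a RefSeq start inside the IFI27 span and does not lie in the gap. Of these 3 neighbours, IFI27 was called higher in KD and the other 2 were not called.

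IFI27, which sensitises cells to mitochondrial apoptosis, had 4, 17 and 12 expected counts in the WT libraries, or 0.149, 0.493 and 0.437 CPM. It rose to 315.5, 94.3 and 238.5 CPM in KD replicates 1 to 3. WT levels were thus close to the limit of detection, and KD replicate 2 was again the lowest of the KD libraries. The log2 fold change was 9.19 (SE 0.61, adjusted p = 5.21e-05, edgeR), which placed it at rank 8 among the 15605 tested genes. The size of this fold rests on at most 17 counts per WT library, and IFI27 passed the filter for low counts through the KD libraries. IFI27 ranked 15628 by mean CPM in WT and 891 in KD.

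IFI27L2 stood at 43.3, 34.8 and 48.6 CPM in the WT replicates and at 53.4, 48.9 and 47.4 CPM in the KD replicates. The conditions overlapped, and the log2 fold change of 0.24 (SE 0.20, adjusted p = 0.686, edgeR) did not pass the test. IFI27L1 stood at 8.76, 4.03 and 2.62 CPM for WT and at 9.86, 5.79 and 5.69 CPM for KD. These libraries overlapped too, with both libraries numbered 1 the highest of their condition, and the log2 fold change was 0.47 (SE 0.51, adjusted p = 0.774, edgeR). Without WT replicate 1 it was 1.08, with an adjusted p of 0.279 from the same test.

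The log2 ratio of IFI27 to IFI27L2 counts was −8.01, −6.10 and −6.74 in the WT libraries and 2.56, 0.95 and 2.33 in the KD libraries. IFI27L2 thus had more counts than IFI27 in each WT library and fewer in each KD library. The mean ratio differed by 8.90 on the log2 scale (exact permutation test, two-sided, p = 0.1). With the counts of IFI27, IFI27L1 and IFI27L2 added up before the fit, the sum had a log2 fold change of 2.52 (adjusted p = 0.00367, edgeR).

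IFI44L (ENSG00000137959, 79085587 to 79111830) and IFI44 (ENSG00000137965, 79115481 to 79129763) lie on the plus strand of chromosome 1, 3.65 kb apart and with 9 exons each in the canonical transcript. IFI44 is a cytoplasmic protein known to slow cell proliferation. Its level was 5.96, 2.55 and 4.59 CPM for WT replicates 1 to 3 and 91.7, 63.8 and 46.4 CPM for KD. It was detected in all WT libraries and the conditions were well separated. The log2 fold change was 3.95 (SE 0.38, adjusted p = 0.000705, edgeR), a 15.4-fold rise.

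IFI44L had 6, 26 and 1 expected counts in the WT libraries, or 0.224, 0.754 and 0.0364 CPM, and reached 94.1, 40.5 and 45.6 CPM after knockdown. WT replicate 3 was under the limit of 3 counts, and WT replicate 2 held most of the WT counts. The log2 fold change was 7.38 (SE 0.73, adjusted p = 0.000732, edgeR). Its size depended on single WT libraries, at 8.81 without WT replicate 2 and 6.88 without WT replicate 3. IFI44L was the only member whose call was lost in an alternative, with an adjusted p of 0.0597 and a log2 fold change of 7.91 in limma-voom. IFI44L also passed the filter for low counts through the KD libraries.

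The log2 ratio of IFI44L to IFI44 counts was −4.63, −1.74 and −6.40 in the WT libraries and 0.04, −0.65 and −0.03 in the KD libraries, so that the pair had more nearly equal counts in KD. The mean ratio was −4.25 ± 2.35 in WT and −0.21 ± 0.38 in KD (SD, n = 3 each; exact permutation test, two-sided, p = 0.1). The difference of 4.04 was 2.97 without WT replicate 3, which had 1 count of IFI44L, and 5.30 without WT replicate 2. Per kilobase of the canonical transcript the level of IFI44 remained higher in KD, at 40.0 ± 13.6 CPM per kb against 10.3 ± 5.08 CPM per kb for IFI44L (SD, n = 3 each), since the annotated IFI44L transcript is longer. The summed counts of the pair had a log2 fold change of 4.76 (adjusted p = 0.00015, edgeR).

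**Figure D3:**
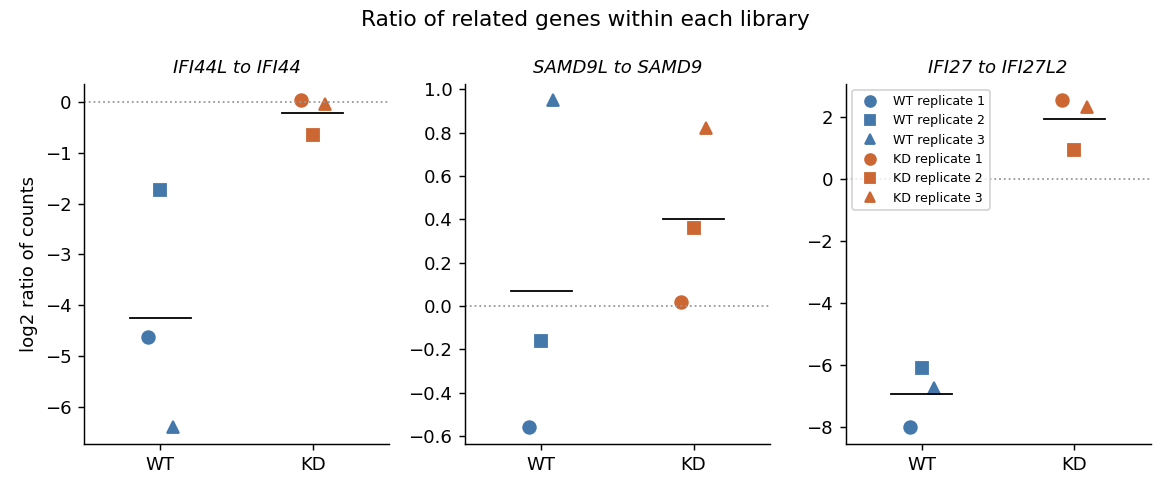
The log2 ratio of expected counts (pseudocount 0.5) between related members within each library, by condition, with the mean as a black line and a ratio of 1 as a dotted line. IFI44L to IFI44 and IFI27 to IFI27L2 do not overlap between conditions, while SAMD9L to SAMD9 does.

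SAMD9 (ENSG00000205413, 92728826 to 92747336) and SAMD9L (ENSG00000177409, 92759369 to 92777698) lie 12.03 kb apart on the minus strand of chromosome 7. SAMD9 stood at 10.6, 8.99 and 4.37 CPM for WT replicates 1 to 3 and at 89.8, 54.9 and 67.3 CPM for KD. Its log2 fold change was 3.14 (SE 0.36, adjusted p = 0.00153, edgeR), an 8.83-fold rise. SAMD9L stood at 7.19, 8.04 and 8.45 CPM for WT and at 91.2, 70.6 and 119.2 CPM for KD. For neither paralog did the conditions overlap. The SAMD9L log2 fold change was 3.57 (SE 0.25, adjusted p = 8.02e-05, edgeR), an 11.9-fold rise. Both genes were expressed without knockdown, at 1.17 ± 0.476 CPM per kb for SAMD9 and 1.10 ± 0.0895 CPM per kb for SAMD9L in WT (SD, n = 3 each), and WT replicate 3 was the lowest for SAMD9 and the highest for SAMD9L.

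The log2 ratio of SAMD9L to SAMD9 counts was −0.56, −0.16 and 0.95 in WT and 0.02, 0.36 and 0.82 in KD. These ratios overlapped, and the mean differed by 0.33 (exact permutation test, two-sided, p = 0.6). It ran from 0.01 (without WT replicate 1) to 0.76 (without WT replicate 3). With 3 libraries per condition this test cannot give a p below 0.1, so it could not have passed a threshold of 0.05 for any of the 3 ratios. The promoter of SAMD9 holds the ISRE match shown above and that of SAMD9L holds none in this window. Its sequence from −80 to −1 (chr7:92777699-92777778, minus strand) is given beside that of its paralog because SAMD9L was called without an exact match. It has no capitals, but it holds aaaactgaaa, which differs from the match of SAMD9 only in the first base. Whether such a near match acts as an ISRE was not tested.
SAMD9L: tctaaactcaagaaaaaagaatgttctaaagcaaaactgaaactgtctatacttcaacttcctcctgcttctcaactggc

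IFI35 (ENSG00000068079) is a plus-strand gene of chromosome 17 (41158757 to 41166473). Its level was 70.8, 63.9 and 79.2 CPM for WT replicates 1 to 3 and 517.1, 321.1 and 427.7 CPM for KD. It was well expressed without knockdown, and the conditions did not overlap. The log2 fold change was 2.57 (SE 0.23, adjusted p = 0.000437, edgeR), the smallest among the 7 called members. NMI, the partner protein of IFI35, stood at 5.33, 8.85 and 11.1 CPM for WT and at 41.5, 24.4 and 35.9 CPM for KD, a log2 fold change of 2.01 (SE 0.34, adjusted p = 0.0146, edgeR). KD replicate 2 was the lowest KD library for both partners.

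EPSTI1 (ENSG00000133106, minus strand of chromosome 13 from 43460524 to 43566407) had 0 counts in each WT library and in KD replicate 1. It had 3 counts in KD replicate 2 and 8 in KD replicate 3, or 0.102 and 0.245 CPM. Only the last lay above the limit of 3 counts. EPSTI1 did not pass the filter for low counts and was not tested, and no fold is given. Its promoter carries both an ISRE and a GAS match. Among the 7 called members, 5 carry an ISRE match (IFI6, IFI27, IFI44, IFI44L and SAMD9). Of 40 other interferon-stimulated genes compared below, 31 had a promoter sequence, and 24 of these (77.4%) carried a match. A match was found in 0 of 5 interferon signalling genes and 0 of 6 housekeeping genes that had a promoter sequence.

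**Figure D4:**
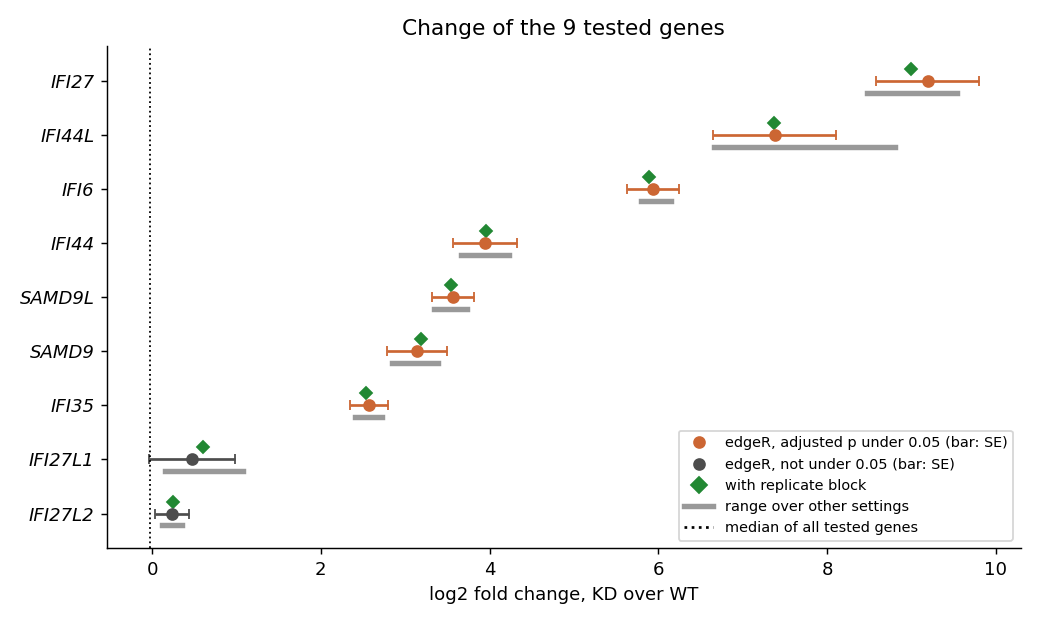
Log2 fold change (KD over WT) of the 9 tested members with its SE from edgeR, the value with a replicate block (green), the range over the alternatives other than summed paralog counts (grey bar) and the median of all tested genes (dotted line). In 7 members the change lies between 2.57 and 9.19, and IFI27L1 and IFI27L2 lie at 0.47 and 0.24, with a range of 0.15 to 1.08 over those alternatives for IFI27L1.

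Levels were ranked among the members per kilobase of the canonical transcript, since counts grow with transcript length. In WT the order was IFI27L2 (93.6 CPM per kb), IFI6 (90.9), IFI35 (60.3), IFI27L1 (7.94), IFI44 (2.60), SAMD9 (1.17), SAMD9L (1.10), IFI27 (0.502), IFI44L (0.058) and EPSTI1 (0). Neighbours in this order overlapped for IFI27L2 and IFI6, for IFI44 and SAMD9 and for SAMD9 and SAMD9L. In KD the order was IFI6 (5568 CPM per kb), IFI35 (357), IFI27 (301.9), IFI27L2 (110.6), IFI44 (40.0), SAMD9L (13.1), IFI27L1 (11.0), SAMD9 (10.4), IFI44L (10.3) and EPSTI1 (0.0372). IFI35 and IFI27 overlapped in KD, as did each pair of neighbours from SAMD9L down to IFI44L. The order depends on the length used, and which transcripts these cells make was not measured. Per kilobase of the union of annotated exons, IFI6 (78.9 CPM per kb) and IFI35 (36.4) stood above IFI27L2 (26.4) in WT. In KD, IFI27 then lay below IFI35 without overlap, with means of 52.3 and 215.5 CPM per kb.

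The KD libraries differed among themselves in a pattern that many members shared. Of the 7 called members, 6 were highest in KD replicate 1 (all but SAMD9L) and 6 were lowest in KD replicate 2 (all but IFI44, lowest in replicate 3). Measured as log2(CPM + 1) minus the mean of the condition, the median of the 7 was 0.37, −0.37 and 0.05 in KD replicates 1 to 3 and −0.03, 0.03 and 0.09 in the WT libraries. The median of 40 other interferon-stimulated genes was 0.08, −0.27 and 0.16 in the KD libraries, and that of all tested genes stayed between −0.01 and 0.01 there. IFI27 varied most, with a highest KD library at 3.34 times the lowest, against 1.61 times for IFI35. STAG2 itself was highest in KD replicate 1. Whether its remaining level bears on these differences was not tested.

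Of the genes that carry the interferon signal, IRF9 and STAT2 were higher in KD and the receptor and kinase genes were not called. Mean levels without and with doxycycline were 20.2 ± 1.27 and 127.2 ± 3.62 CPM for IRF9 and 91.7 ± 22.3 and 351.7 ± 29.4 CPM for STAT2 (SD, n = 3 each). Their log2 fold changes were 2.66 (adjusted p = 6.49e-05) and 1.94 (adjusted p = 0.00184, both edgeR). IFNAR1, IFNAR2, JAK1 and TYK2 had log2 fold changes of 0.04, 0.43, −0.10 and −0.22, with adjusted p from 0.552 to 0.969.

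Of the 40 other interferon-stimulated genes, 38 were higher in KD, 0 were lower, and their median log2 fold change was 3.20. The median was 3.57 for the 9 tested members and −0.03 for all tested genes. The largest fitted changes were those of RSAD2 (viperin, 10.42 on the log2 scale, with at most 1 count in any WT library, so that this value depends on the prior count of the fit), CMPK2 (a mitochondrial nucleotide kinase, 6.87) and ISG15 (a ubiquitin-like modifier, 5.71). The smallest in absolute size were those of IFITM2 (−0.26, adjusted p = 0.963, edgeR), MX2 (1.15, adjusted p = 0.0226) and LY6E (1.28, adjusted p = 0.0108). DDX60 also did not pass the test, with a log2 fold change of 2.31 and an adjusted p of 0.0628 from edgeR, but was called with the replicate block (2.29, adjusted p = 0.00242), which called 39 of the 40.

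**Figure D5:**
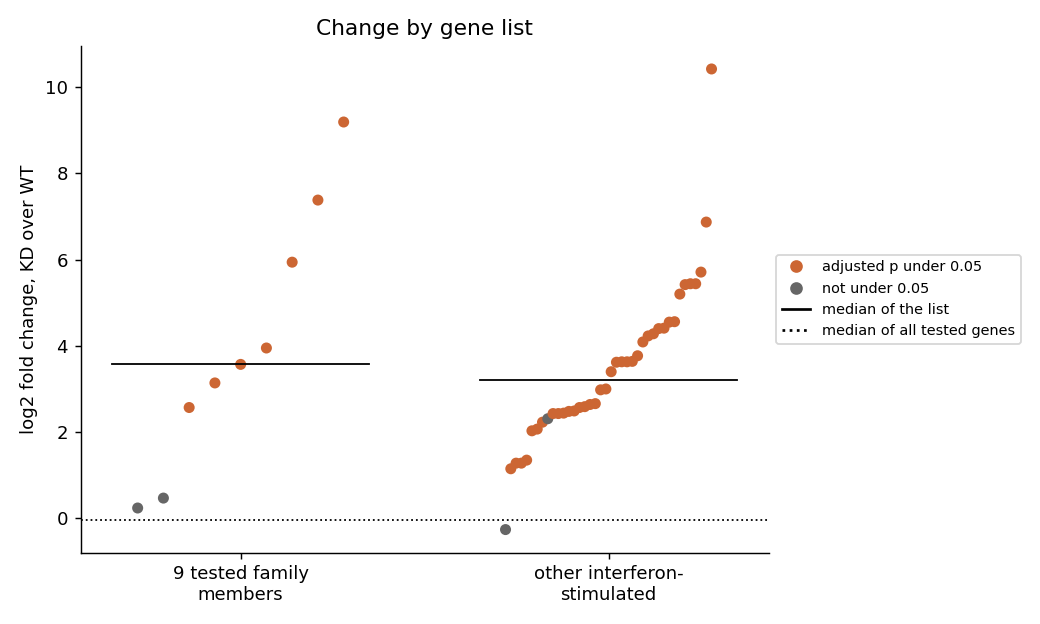
Log2 fold change (KD over WT) of each tested gene in 2 lists, ordered within each list, with called genes in orange, the list median as a black line and the median of all tested genes as a dotted line. The members and the other interferon-stimulated genes have medians of 3.57 and 3.20, far above the median of all tested genes.

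IFI16 and IFI30 are interferon-inducible too but belong to other protein families. IFI30, a lysosomal thiol reductase, averaged 23.3 ± 10.7 CPM without and 22.2 ± 7.12 CPM with doxycycline (SD, n = 3 each; log2 fold change −0.07, adjusted p = 0.969, edgeR). IFI16, a nuclear DNA sensor, averaged 180.2 ± 23.0 and 321.6 ± 36.1 CPM. Its log2 fold change of 0.84 did not pass the test (adjusted p = 0.0599, edgeR) but did with the replicate block (adjusted p = 0.00966). None of the housekeeping genes given here was called in either direction. Their log2 fold changes were −0.41 for ACTB, −0.30 for GAPDH, 0.07 for TBP, −0.47 for PPIA, 0.40 for HPRT1, −0.21 for YWHAZ and 0.27 for SDHA.

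None of the nearest protein-coding genes beside the members was called by the edgeR test without a block. Beside IFI35, VAT1 lies 0.15 kb and RPL27 3.78 kb away, with log2 fold changes of 0.18 (adjusted p = 0.833) and −0.28 (adjusted p = 0.671, both edgeR). DDX24, 0.1 kb from IFI27L1 and 23.63 kb from IFI27, averaged 90.6 ± 19.8 CPM without and 129.9 ± 9.98 CPM with doxycycline, with no overlap (SD, n = 3 each; log2 fold change 0.52, adjusted p = 0.279, edgeR). CDK6, 262.94 kb from SAMD9, averaged 48.6 ± 7.37 and 30.5 ± 2.82 CPM. It did not pass the test (log2 fold change −0.67, adjusted p = 0.151, edgeR) but did with the replicate block (adjusted p = 0.0362). FAM76A beside IFI6 and DNAJC15 beside EPSTI1 had log2 fold changes of −0.13 (adjusted p = 0.958) and 0.28 (adjusted p = 0.751, both edgeR). The other neighbours were too low to test, namely PPP4R4, HEPACAM2 and FAM216B at 0 in all libraries, and PTGFR, ADGRL4 and FGR at a mean of 0.295 CPM or less in either condition.

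For each called member, the 3 genes with the most similar profile over the 6 libraries were found by the root mean square difference of log2(CPM + 1), each profile centred on its own mean, a measure that the change between conditions dominates. CMPK2 was nearest to IFI6 (0.24), ST14, a membrane protease, to IFI27 (0.64), IFIH1 to IFI44 (0.25) and IFIT1 to IFI44L (0.32). VGF, a neuropeptide precursor, was nearest to IFI35 (0.15), THEMIS2 to SAMD9 (0.25) and IRF7 to SAMD9L (0.17). Other near genes were ISG15 and RSAD2 for IFI6, ISG15 and CMPK2 for IFI27, IFIT2 and ISG20 for IFI44, IFITM1 and RSAD2 for IFI44L, HSH2D and HLA-F for IFI35, RTP4 for SAMD9, and DHX58 and RTP4 for SAMD9L. Of the 7, IFI27 had the largest difference from its nearest gene. ST14 went from 0.468 CPM in WT to 171.7 CPM in KD on average, and VGF from 93.3 to 498.5 CPM. With 1 CPM added before the log, a gene near 0 in WT can lie near a member despite a far larger fold. HSH2D averaged 0 CPM in WT and 4.82 CPM in KD, a log2 fold change of 10.2 against 2.57 for IFI35. RSAD2 averaged 0.0221 CPM in WT and 36.4 CPM in KD, a log2 fold change of 10.42 against 5.94 for IFI6.

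With the replicate number as a block, edgeR called 1486 genes in place of 404, and 5.1% of all tested genes higher in KD. All 404 were among them. The 7 members were called again, and IFI27L1 and IFI27L2 were again not called. Without both libraries numbered 1, 7 members were called as well, with log2 fold changes of 5.80 for IFI6, 8.47 for IFI27, 3.97 for IFI44, 6.66 for IFI44L, 2.40 for IFI35, 3.19 for SAMD9 and 3.53 for SAMD9L.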

How the data were processed

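The authors mapped single-end reads to hg19 with STAR and estimated gene counts with RSEM, and deposited the expected counts, which carry no scaling for depth. Reads matching more than 1 gene are shared out by RSEM, so paralog counts are partly estimated. Of 57820 genes, 33470 were at 0 in all 6 libraries, and no 2 libraries were identical. Counts were rounded, filtered with filterByExpr, scaled by TMM and tested with edgeR 4.0.16 (R 4.3.3) quasi-likelihood tests, KD against WT, with Benjamini-Hochberg adjustment. SE is the log2 fold change divided by the square root of F. Alternatives were DESeq2 1.42.0, upper-quartile scaling, limma-voom (limma 3.58.1), other filters, unrounded counts, a threshold of 0.01, a replicate block, summed paralogs and omitted libraries. Same-numbered libraries deviated together from their condition means (r = 0.61, 0.48 and 0.38 for replicates 1 to 3 over 8932 genes). Different numbers gave −0.56 to −0.39 where a library numbered 1 was involved but 0.30 and 0.20 between replicates 2 and 3, so these are less distinct. Every same-number r exceeded 0.1, but so did the 0.30 and 0.20 between replicates 2 and 3. The criterion thus does not settle how replicates 2 and 3 pair. The numbers were taken to pair the libraries on the data alone, since the labels state no pairing. Calls made only with the replicate block depend on that choice. The tests were checked on simulated data. There edgeR called 12.3%, 66.7% and 86.3% of genes given log2 changes of 1, 2 and 3 in either direction. It called 0.0206% of unchanged genes. Most changes of 1 were thus missed, so a gene not called here may still have changed by that much. Annotation was GENCODE v44 lifted to GRCh37, to which 55538 of the IDs matched. Named genes are the members, STAG2, the signalling, partner and housekeeping genes, the 3 largest and 3 smallest absolute changes among the other interferon-stimulated genes, locus neighbours and overlaps, and the most similar profiles. Other names, such as DDX60, SOX10, PMEL and CD68, were chosen after their values were seen. Members and lists were chosen with earlier results of these data known. Some results on genes of these lists are not reported here.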

Additional observations from a re-analysis of the deposited data

How the results depend on the processing

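The number of members called higher was 7 in the alternatives that counted them, except for limma-voom (6) and the filter of 10 counts in every library (5). The 7 called members kept their direction in all alternatives in which they could be tested, and IFI44L in limma-voom was the only call lost (adjusted p = 0.0597). The filter of 10 counts in every library removed IFI27 and IFI44L, which were therefore not tested there. IFI27L1 and IFI27L2 stayed above 0 and uncalled, apart from the fit on summed paralogs, in which they share the sum with IFI27. Omitting any 1 library, log2 fold changes ran from 5.81 to 6.15 for IFI6, 8.81 to 9.54 for IFI27, 3.66 to 4.23 for IFI44, 6.88 to 8.81 for IFI44L, 2.40 to 2.73 for IFI35, 2.84 to 3.39 for SAMD9 and 3.34 to 3.73 for SAMD9L. The number of genes called over the whole table moved more. It was 404, and became 988 with DESeq2, 1103 without a filter on low counts, 137 at an adjusted p under 0.01, 1486 with the replicate block and 757 without both libraries numbered 1. With 1 library left out it ran from 121 (without KD replicate 3) to 531 (without WT replicate 1), and was 177 and 165 without WT replicates 2 and 3 and 241 and 146 without KD replicates 1 and 2. The replicate block changed no call among the members, IRF9, STAT2 or the receptor and kinase genes. In the paralog ratios, the replicate block is a test of sign changes. The difference in the IFI27 to IFI27L2 ratio ran from 8.37 to 9.40 with 1 library left out. The share of higher genes among those called was 67.6%, 55.7% with DESeq2, 51.9% without a filter, 84.7% at an adjusted p under 0.01 and 53.6% with the replicate block. The fold changes of IFI27 and IFI44L rest on few WT counts, and EPSTI1 is at the limit of detection at this depth.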

Other observations

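The promoters of the members also differed in CpG content, a comparison made after the values had been seen. In the 300-base windows, the 7 members higher in KD held between 0 and 9 CpG dinucleotides, and EPSTI1, IFI27L1 and IFI27L2 held between 18 and 25, beside a median of 14 over all RefSeq promoters of this length. With 10 genes in 6 separate loci, no test was made. CD68, a lysosomal glycoprotein gene, averaged 33.5 ± 7.25 CPM without and 100.9 ± 21.2 CPM with doxycycline (SD, n = 3 each), a log2 fold change of 1.59 (adjusted p = 0.00855, edgeR).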
